A study of Mus musculus with 6 samples.

Results

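The 8 genes described here carry lymphocytes into, through and out of lymphoid tissue: Ccr7, Gpr183, S1pr1, S1pr4, Cd69, Klf2, Selplg and Cd44. They were picked by symbol from the deposited table of 18493 genes, with no measured value in the rule, and all 8 had enough reads to be tested among 12887 genes. Regulatory T (Treg) cells, the CD4 T cells that restrain immune responses, were sorted as CD4+CD25+YFP+ from spleen and lymph node of C57BL/6 females 7 weeks of age. The 3 wild-type libraries (WT1 to WT3) came from Foxp3cre/+ mice and the 3 conditional knockout libraries (cKO1 to cKO3) from Foxp3cre/+ TKTfl/fl mice, in which the floxed gene of transketolase (Tkt), an enzyme of the non-oxidative pentose phosphate pathway, is the target of the Cre. Mice of both groups carry the Cre on 1 of their X chromosomes and are chimeric for it, so the YFP gate takes the cells that use that chromosome, and host cells without Cre remain in each mouse. Whether a library pools animals is not stated, so p-values rest on the spread among 6 libraries.

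T cells enter lymph nodes from blood by rolling on vessel walls and then answering chemokines through CCR7. They leave when the sphingosine-1-phosphate (S1P) receptor encoded by S1pr1 senses the high S1P of lymph and blood, and CD69, an early activation antigen, binds that receptor and takes it off the surface. Klf2 encodes a zinc finger transcription factor known to drive S1pr1 in resting T cells. Gpr183 (EBI2) guides cells by oxysterols within lymphoid organs. PSGL-1, encoded by Selplg, and CD44 bind selectins and hyaluronan on vessel walls, and CD44 is raised on antigen-experienced T cells. In Treg cells, high CCR7 with low CD44 marks the resting, recirculating subset.

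Upstream sequences are shown for 2 of the 8 genes: Klf2, the regulator among them, and Cd44, the gene with the lowest p. Both are the 250 bases before the start of a RefSeq transcript on build GRCm38.p6, the build that the files' mm10 names. The Klf2 window is chr8:72318812-72319061 on the plus strand and the Cd44 window chr2:102901666-102901915 on the minus strand, which takes in the outermost annotated position of the gene, 102901669. Capitals mark matches, on either strand, to 5 motifs: the GC box GGGCGG, the KLF core CACCC, the FOXO core TGTTTAC, the AP-1 site TGANTCA and the MEF2 consensus.
Klf2: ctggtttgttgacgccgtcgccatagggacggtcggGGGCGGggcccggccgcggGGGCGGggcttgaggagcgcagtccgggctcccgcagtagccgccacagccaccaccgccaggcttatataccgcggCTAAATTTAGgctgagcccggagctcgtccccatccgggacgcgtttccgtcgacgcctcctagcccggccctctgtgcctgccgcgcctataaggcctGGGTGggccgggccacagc
Cd44: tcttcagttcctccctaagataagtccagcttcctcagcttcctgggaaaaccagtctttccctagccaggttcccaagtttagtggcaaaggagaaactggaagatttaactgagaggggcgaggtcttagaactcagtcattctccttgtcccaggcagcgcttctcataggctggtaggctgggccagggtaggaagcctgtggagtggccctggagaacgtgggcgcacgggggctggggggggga
The Klf2 window held a MEF2 match starting 118 bases before the start, GC boxes at 214 and 195 bases, and a KLF core at 19 bases, with a GC content of 71.2%. MEF2 factors are known to activate Klf2 downstream of the kinase ERK5. None of the 5 motifs was found in the Cd44 window, which says only that these letters are not there. Over 32851 windows of the same length, the MEF2 consensus was found in 2.92%, the GC box in 32.7%, the KLF core in 52.0%, the AP-1 site in 6.75% and the FOXO core in 3.17%; the GC box and the KLF core can lie in the same GC-rich stretch. The matches are descriptions and not sites shown to be bound.

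The libraries held 17180577 to 18215168 estimated reads. Tkt, the targeted gene, stood at 126, 97.1 and 121 CPM (reads of a gene relative to library size, after TMM scaling) in WT and at 52.5, 44.8 and 31.9 CPM in cKO, with no overlap of the groups (log2 difference -1.41 ± 0.19 SE, adjusted p = 0.0516 in edgeR's quasi-likelihood test). WT2 and cKO1 stood apart from the other libraries, at the high end of the first principal component (36.1% of the variance), so results are also given without both. In these libraries Tnfaip3, a gene induced by NF-kappaB, was at 4898 and 4612 CPM against 1152 to 2332 CPM elsewhere, and Hspa1a, a heat shock chaperone, at 12.7 and 5.35 CPM against 26.4 to 163 CPM. All 11 markers that define T cells and Treg cells were present in each group. Their summed level was 5612 to 6038 CPM in WT and 5116 to 5437.5 CPM in cKO, and Foxp3 itself differed by 0.05 ± 0.16 (log2, SE; adjusted p = 0.987). Of the 11, 7 had log2 fold changes below 0 (48.6% of all genes tested did), 4 above, and none was called. Cd3g (-0.28) and Ikzf2 (-0.21) were lower in cKO without overlap, as were 8.12% of all genes. Ctla4 had the largest difference (-0.57), with overlap.

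None of the 8 genes passed the test in edgeR (adjusted p under 0.05), against 0.21% of all genes tested. By log2 fold change Cd44 (-0.48), Cd69 (-0.45), Gpr183 (-0.40), Ccr7 (-0.18) and Klf2 (-0.03) had lower values in cKO, and S1pr1 (0.26), S1pr4 (0.24) and Selplg (0.07) had higher ones. The median of the 8 was -0.11, and the median of all genes tested was 0.004. The groups did not overlap for Cd44 and Cd69, lower in cKO, and for S1pr4, higher in cKO. Over all genes tested, 8.12% were lower and 6.1% higher in cKO without overlap.

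**Figure D1:**
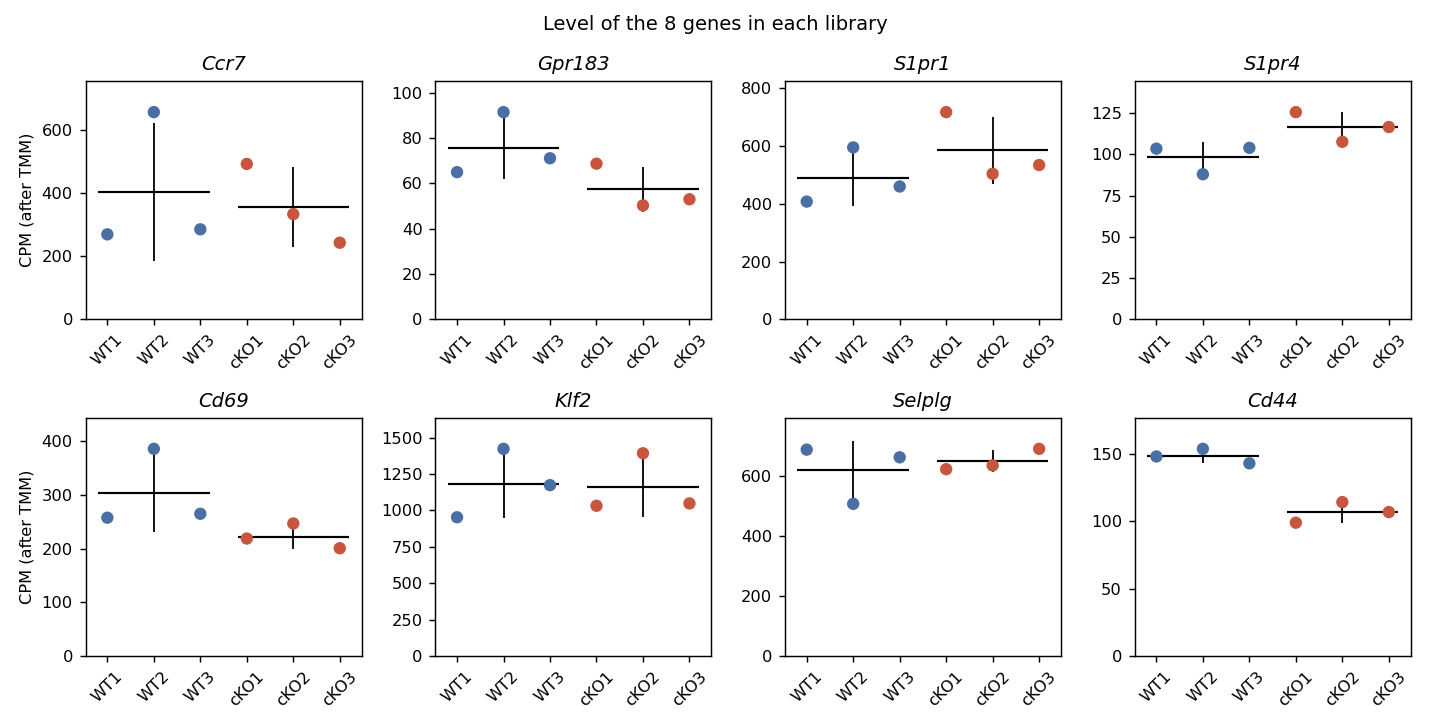
CPM after TMM scaling of each of the 8 genes (vertical axes from 0, one scale per panel) in the 3 WT libraries (blue) and the 3 cKO libraries (red). Points are libraries, horizontal bars group means and vertical bars the SD; only the Cd44, Cd69 and S1pr4 panels show groups that do not overlap, and WT2 is the highest library in 5 panels.

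Levels of different genes were compared on the deposited FPKM scale, which divides by gene length. In WT, Klf2 was the highest at 622 ± 116 FPKM (SD, n = 3), followed by Selplg (356 ± 64.9), Ccr7 (204 ± 105), Cd69 (179 ± 42.3), S1pr1 (160 ± 27.7), S1pr4 (41.1 ± 4.70), Cd44 (33.0 ± 0.876) and Gpr183 (25.6 ± 4.04 FPKM). The libraries of Ccr7, Cd69 and S1pr1 overlapped with each other, as did those of Selplg and Ccr7, so the order of those neighbours is not fixed beyond their spread. In cKO the order was Klf2 (614 ± 119 FPKM), Selplg (373 ± 27.6), S1pr1 (191 ± 33.1), Ccr7 (180 ± 59.1), Cd69 (132 ± 15.5), S1pr4 (48.5 ± 2.98), Cd44 (23.8 ± 2.29) and Gpr183 (19.3 ± 2.88 FPKM). There S1pr1 stood above Ccr7 and Cd69, but its libraries overlapped with those of Ccr7, and those of Ccr7 with those of Cd69. The Cd44 and Gpr183 libraries overlapped in cKO (21.3 to 25.7 against 17.1 to 22.6 FPKM) and not in WT (32.2 to 33.9 against 22.4 to 30.1 FPKM).

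Ccr7, the receptor for CCL19 and CCL21 that brings T cells into lymph nodes, lies on chromosome 11 (99144199 to 99155077, minus strand; Entrez 12775). It stood at 269, 655 and 285 CPM in WT and at 492, 333 and 243 CPM in cKO. The groups overlapped in part, with WT2 above all cKO libraries and cKO3 below all WT libraries. WT2 and cKO1 were the highest libraries of their groups. Its log2 fold change was -0.18 ± 0.39 (SE; adjusted p = 0.976), with a 95% interval, not adjusted for the number of genes, from -1.10 to 0.74. Ccr7 had the widest spread of the 8, with an SD within groups of 0.62 on the log2 scale, above that of 98.4% of the 4355 genes with a mean of at least 50 CPM. Its sign depended on single libraries: the log2 fold change was 0.36 without WT2, 0.03 without cKO3 and 0.06 without both WT2 and cKO1, and the adjusted p was 0.694 or more in all 15 alternatives.

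Gpr183, the oxysterol receptor EBI2, lies on chromosome 14 (121952331 to 121965193, minus strand; Entrez 321019). It stood at 65.0, 91.5 and 71.1 CPM in WT and at 68.7, 50.3 and 53.0 CPM in cKO. cKO1 lay above WT1, and the other cKO libraries lay below all WT libraries. Between groups the log2 fold change was -0.40 ± 0.16 (SE; adjusted p = 0.614), and it was -0.25 without WT2 and -0.55 without cKO1. Without both WT2 and cKO1 it was -0.40 with an adjusted p of 0.125, and the remaining groups did not overlap, as was the case in the lower direction for 21.6% of all genes. The ratio of Ccr7 to Gpr183 FPKM was 6.06 to 10.8 in WT and 6.90 to 10.8 in cKO, so the chemokine and oxysterol receptors kept overlapping proportions.

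S1pr1, the receptor that T cells use for egress, lies on chromosome 3 (115710433 to 115715055, minus strand; Entrez 13609). It stood at 408, 595 and 460 CPM in WT and at 717, 504 and 534 CPM in cKO. WT2 lay above cKO2 and cKO3, and cKO1 was the highest of all. The log2 fold change was 0.26 ± 0.18 (SE; adjusted p = 0.844; 95% interval, not adjusted, -0.16 to 0.69), and it ranged from 0.09 without cKO1 to 0.43 without WT2. Without both it was 0.26 (adjusted p = 0.289), and the remaining groups did not overlap, as in the higher direction for 20.7% of all genes.

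S1pr4, an S1P receptor of lymphocytes and other blood cells, lies on chromosome 10 (81497745 to 81500137, minus strand; Entrez 13611). It stood at 103, 88.0 and 104 CPM in WT and at 126, 108 and 117 CPM in cKO. Every cKO library lay above every WT library, with cKO2 only slightly above WT3. The log2 fold change was 0.24 ± 0.10 (SE; adjusted p = 0.601), and it was 0.11 without both WT2 and cKO1. Per length, S1pr1 exceeded S1pr4 by 3.10 to 5.33 times in WT and 3.61 to 4.50 times in cKO. S1pr4 and Selplg had estimated reads that were not whole in all 6 libraries, while the reads of the other 6 genes were whole throughout; the sources used here do not say how reads were divided.

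Cd69, the lectin-like activation antigen that retains cells by removing the S1pr1 protein from the surface, lies on chromosome 6 (129267324 to 129275375, minus strand; Entrez 12515). It stood at 257, 385 and 265 CPM in WT and at 219, 247 and 201 CPM in cKO. All cKO values were below all WT values, but cKO2 came close to WT1, and WT2 stood well above the rest. The log2 fold change was -0.45 ± 0.17 (SE; adjusted p = 0.568). It was -0.23 without WT2 and -0.22 without both WT2 and cKO1, so its size depended on WT2 by over 1.5 times, and no alternative called it (adjusted p from 0.297 with DESeq2 to 0.829 without cKO1).

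Cd69 is induced within hours of T cell receptor signals, so immediate early genes, which answer the same signals, were set beside it. The 30 listed genes summed to 17569, 25059 and 18704 CPM in WT and to 20886, 20226 and 13098 CPM in cKO. WT2 was highest and cKO3 lowest for this sum, as for Cd69, but cKO1 and cKO2 stood above WT1 and WT3 for the sum and below them for Cd69. Of 29 tested, none was called, 19 had log2 fold changes below 0 (48.6% of all genes tested did) and 5 were lower in cKO without overlap (8.12% of all genes). The part of activation state in the Cd69 values was not tested. The 3 genes whose library pattern was nearest to that of Cd69 were Hmgn5, a nucleosome-binding protein, Rgs1, a brake on chemokine receptor signalling, and Klf6, a relative of Klf2. Klf6 is also 1 of the 30 immediate early genes listed, and 1 of the 5 lower in cKO without overlap. Their centred log2 CPM differed from those of Cd69 by a root mean square of 0.074, 0.078 and 0.087 over the 6 libraries, the smallest of 8753 genes compared.

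The S1pr1 to Cd69 ratio of FPKM sets the egress receptor against its antagonist within a library. It was 0.894, 0.836 and 0.975 in WT and 1.78, 1.12 and 1.52 in cKO. Cd69 exceeded S1pr1 in each WT library and S1pr1 exceeded Cd69 in each cKO library. In group means the ratio was 0.901 ± 0.0697 in WT and 1.47 ± 0.330 in cKO (SD, n = 3). The ratio was chosen after the values of both genes were known and carries no test. Cd69 did not overlap between the groups on its own, so the ratio is not separate from the Cd69 difference. How many gene pairs would separate the groups was not counted. Whether the ratio falls below or above 1 also depends on the gene lengths used for FPKM. It is a ratio of RNA levels and does not measure surface S1P receptor.

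**Figure D2:**
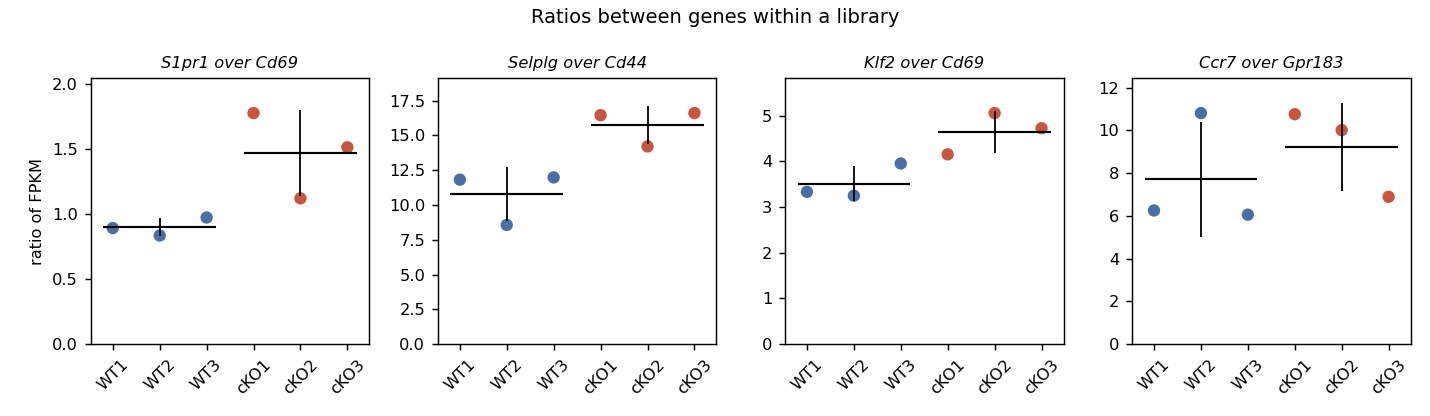
Ratios of FPKM between pairs of genes within each library (vertical axes from 0), with group means (horizontal bars) and SD (vertical bars), WT in blue and cKO in red. S1pr1 over Cd69 lies below 1 in WT and above 1 in cKO, and Selplg over Cd44 and Klf2 over Cd69 do not overlap either. The denominators Cd69 and Cd44 each separate the groups without a ratio. Ccr7 over Gpr183 overlaps through WT2 alone. The pairs were chosen with values of these data known and carry no test.

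Klf2, the transcription factor of quiescent, recirculating T cells, lies on chromosome 8 (72319062 to 72321654, plus strand; Entrez 16598), directly after the upstream window printed above. It stood at 953, 1423 and 1174 CPM in WT and at 1032, 1392 and 1048 CPM in cKO. The groups overlapped fully, with WT2 and cKO2 high. Its log2 fold change was -0.03 ± 0.17 (SE; adjusted p = 0.993; 95% interval, not adjusted, -0.44 to 0.38). Its sign changed without WT2 (0.12), cKO1 (0.05) or cKO3 (0.04) and without both WT2 and cKO1 (0.20), with adjusted p-values from 0.697 to 0.998. Klf2 and S1pr1, its known target, did not share the same high libraries, since cKO1 was the highest for S1pr1 and the second lowest for Klf2. The S1pr1 to Klf2 ratio of FPKM was 0.247 to 0.268 in WT and 0.222, 0.321 and 0.428 in cKO, a wider range on both sides. Among the nearest library patterns were those of the small GTPase Rhob and the DNA helicase Blm, at root mean squares of 0.075 and 0.082.

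Selplg, which encodes the selectin ligand PSGL-1, lies on chromosome 5 (113817798 to 113832528, minus strand; Entrez 20345). It stood at 687, 507 and 662 CPM in WT and at 622, 635 and 690 CPM in cKO. The cKO libraries lay within or just above the WT range, and WT2 was the lowest of all. Its log2 fold change was 0.07 ± 0.12 (SE; adjusted p = 0.970; 95% interval, not adjusted, -0.22 to 0.36), and it was -0.06 without WT2 and -0.03 without both WT2 and cKO1.

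Cd44, the hyaluronan receptor of antigen-experienced T cells, lies on chromosome 2 (102811141 to 102901669, minus strand; Entrez 12505), and its upstream window is printed above. It stood at 148, 154 and 143 CPM in WT and at 98.9, 114 and 107 CPM in cKO. All cKO values were below all WT values, and the gap between the groups was wider than the range within either. The means were 148 ± 5.37 and 107 ± 7.63 CPM (SD, n = 3), a ratio of 1.39 (log2 fold change -0.48 ± 0.08 SE). The adjusted p was 0.0876 in edgeR's test, above the threshold. DESeq2 called it (adjusted p = 0.000138), the 1 call among the 8 genes by that tool, which called 1.2% of all genes lower in cKO. The size changed little between alternatives, from -0.53 without cKO2 to -0.40 without both WT2 and cKO1, while the adjusted p reached 0.390 without WT1. Cd44 also had the smallest spread of the 8, with an SD within groups of 0.082 on the log2 scale. The table counts reads per gene, so the spliced forms of Cd44 were not analysed here.

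The Selplg to Cd44 ratio of FPKM was 11.8, 8.56 and 12.0 in WT and 16.5, 14.2 and 16.6 in cKO. All 3 cKO libraries lay above all WT libraries, as a description with no test. Like the S1pr1 to Cd69 ratio, this one was chosen with values of these data known, and its denominator Cd44 did not overlap on its own. The Ccr7 to Cd44 ratio, whose genes mark the resting subset, overlapped between groups. It was 4.13, 9.91 and 4.58 in WT and 11.4, 6.67 and 5.18 in cKO. The overlap came from WT2 alone, as WT1 and WT3 lay below all cKO libraries, and this was not tested. The library pattern nearest to that of Cd44 was Nsd2, a histone methyltransferase, at a root mean square of 0.040, followed by the transcription factor Grhl1 (0.055) and Sh3bgrl (0.058). None of the 3 was called in edgeR (adjusted p from 0.0635 to 0.125), while DESeq2 called all 3 (adjusted p from 0.00135 to 0.0055). All were lower in cKO without overlap. As they were picked for their nearness to Cd44, this adds no evidence.

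**Figure D3:**
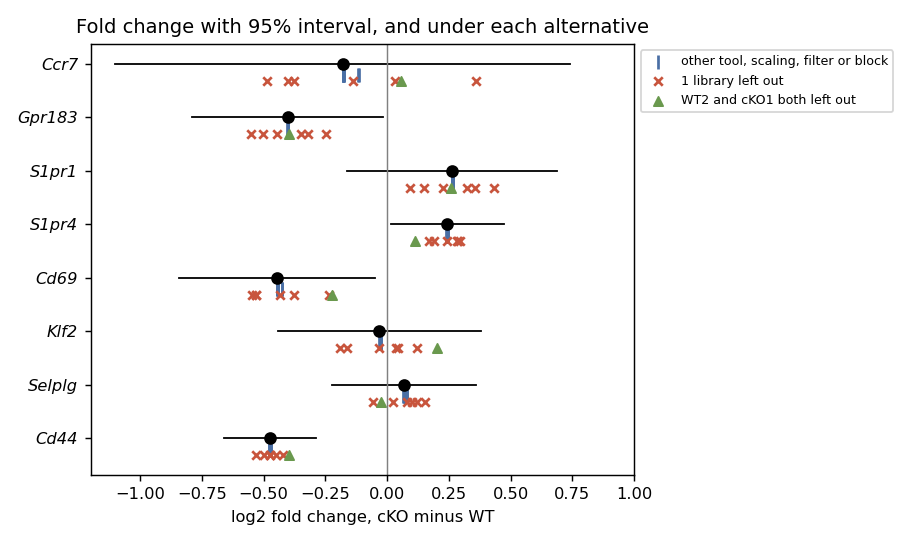
Log2 fold change of cKO minus WT for each gene (black points) with its 95% interval, not adjusted for the number of genes (black lines), and below it the values with another tool, scaling, filter or block (blue ticks), with 1 library left out (red crosses) and without WT2 and cKO1 (green triangles). The Cd44 values stay between -0.53 and -0.40, while Ccr7, Klf2 and Selplg cross 0 when libraries are left out.

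WT2 was the highest library for Ccr7, Gpr183, Cd69, Klf2 and Cd44 and the lowest for S1pr4 and Selplg. cKO1 was the highest for S1pr1 and S1pr4. From lowest to highest library, Ccr7 varied by 2.70 times, Cd69 by 1.92 times, Gpr183 by 1.82 times, S1pr1 by 1.76 times, Cd44 by 1.55 times, Klf2 by 1.49 times, S1pr4 by 1.43 times and Selplg by 1.36 times. For Cd44 that range lay mostly between the groups, and for Ccr7 and Klf2 within them. Without WT2 and cKO1, Cd44, Cd69 and Gpr183 were lower and S1pr1 and S1pr4 higher in cKO without overlap, a state that 42.3% of all genes reached in 1 direction or the other with 2 libraries a group.

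**Figure D4:**
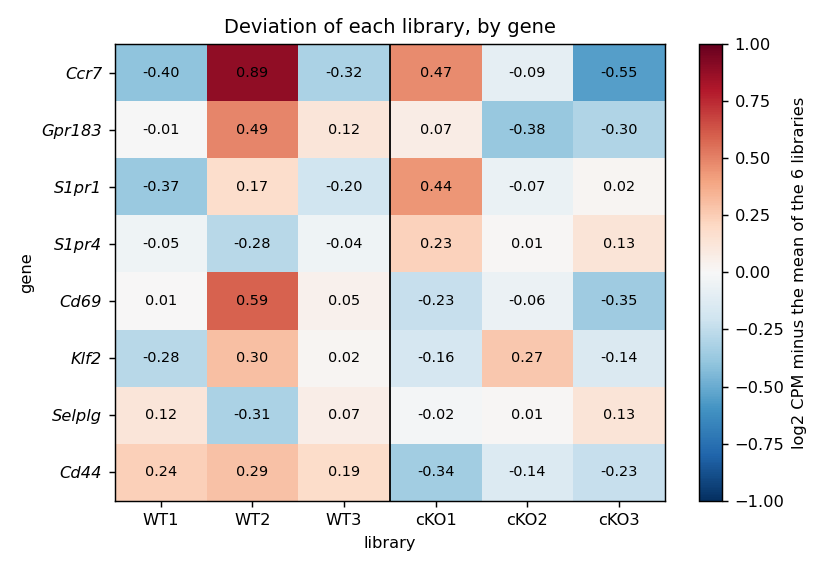
Log2 CPM of each gene (rows) in each library (columns) minus its mean over the 6 libraries, as color and number. The WT2 column holds the largest rise over the mean (0.89 for Ccr7), and the Cd44 row is positive in all 3 WT and negative in all 3 cKO libraries.

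The other genes of these pathways were read from 6 lists, which also hold the 8 genes. Over all genes tested 48.6% lay below 0 and 51.4% above, and 0.21% were called. Of lymph node entry genes (24 tested), Cxcr4, the receptor for CXCL12, and the integrin beta-1 gene Itgb1 were called lower in cKO and none was called higher. Cxcr4 went from 331, 322 and 339 CPM to 178, 189 and 194 CPM (log2 difference -0.82 ± 0.07 SE, adjusted p = 0.0269). Itgb1 went from 261, 285 and 238 CPM to 139, 155 and 145 CPM (log2 difference -0.83 ± 0.09 SE, adjusted p = 0.0449). Both calls were lost with the replicate number as a block (adjusted p = 0.189 for each) and without any single library other than WT2. The median of the list was 0.02, 9 of 24 lay below 0 and 15 above, and without overlap 4 were lower and 3 higher in cKO (8.12% and 6.1% of all genes). The integrin chains of gut and lymphoid entry, named here after their values were seen, were not called. Itga4 had a log2 fold change of -0.05, with overlap. Itgb7 (0.23) was among the 3 genes of the list higher in cKO without overlap.

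No gene of the other 5 lists was called in edgeR. Of 23 genes of the S1P axis, 18 lay above 0 (median 0.03), against 51.4% of all genes. The lowest p-values after the 8 genes belonged to the receptor kinases Grk5 (0.25 ± 0.13) and Grk6 (0.17 ± 0.10; log2 fold change, SE), and all cKO libraries lay above all WT libraries for both (adjusted p = 0.769 and 0.785). Of 7 genes tested in the oxysterol list, 6 lay below 0 (median -0.11), with Gpr34 at only -0.003. Besides Gpr183 and Hsd3b7, an enzyme that breaks down oxysterols, these were receptors of other ligands: P2ry10, Gpr174, Gpr34, Gpr132 and Gpr65. Gpr183 (-0.40) and Hsd3b7 (0.19) had opposite signs, so the count does not describe an oxysterol axis. The lowest p-values of the list after Gpr183 belonged to the lysophospholipid receptor Gpr174 (-0.11) and to Hsd3b7. Ch25h, which makes the precursor of the Gpr183 ligand, stood at 0.0555 to 0.291 CPM and was not tested; this gene was named after its values were seen.

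Of 25 genes of the Klf2 network, 17 lay above 0 (median 0.12). Cxcr3, a chemokine receptor known to rise when Klf2 is lost, stood at 40.2, 32.6 and 31.1 CPM in WT and at 9.71, 16.1 and 14.4 CPM in cKO, without overlap. The fitted difference of -1.37 ± 0.19 (log2, SE) had an adjusted p of 0.0560, just above the threshold in edgeR's test. Klf6 stood at 956, 1288 and 964 CPM in WT and at 738, 762 and 685 CPM in cKO (-0.55 ± 0.13, adjusted p = 0.233), also without overlap. Of 26 genes of selectin ligand synthesis, 17 lay above 0 (median 0.04). Gcnt1, which builds the core-2 branch that carries selectin ligands, stood at 13.9, 13.3 and 15.1 CPM in WT and at 6.69, 9.70 and 10.3 CPM in cKO (log2 difference -0.66 ± 0.17 SE, adjusted p = 0.304). St3gal6, a sialyltransferase, had the opposite sign (0.46 ± 0.13, adjusted p = 0.356).

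Of 20 genes of the CD44 and hyaluronan list, 10 lay below 0 and the median was -0.03. Cd44 itself, Cemip2, a surface hyaluronidase, and Mmp14, a membrane protease that sheds CD44, had the lowest p-values. Cemip2 stood at 10.4, 9.03 and 9.80 CPM in WT and at 6.11, 5.12 and 4.96 CPM in cKO (log2 difference -0.85 ± 0.15 SE, adjusted p = 0.0978). Mmp14 had a log2 fold change of -0.79 ± 0.18 (adjusted p = 0.217). Of the 20, 7 were lower in cKO without overlap and 1 was higher, beside 8.12% and 6.1% of all genes. DESeq2 called 3 of this list and 3 of the 25 genes of the Klf2 network, beside 1.39% of all genes.

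**Figure D5:**
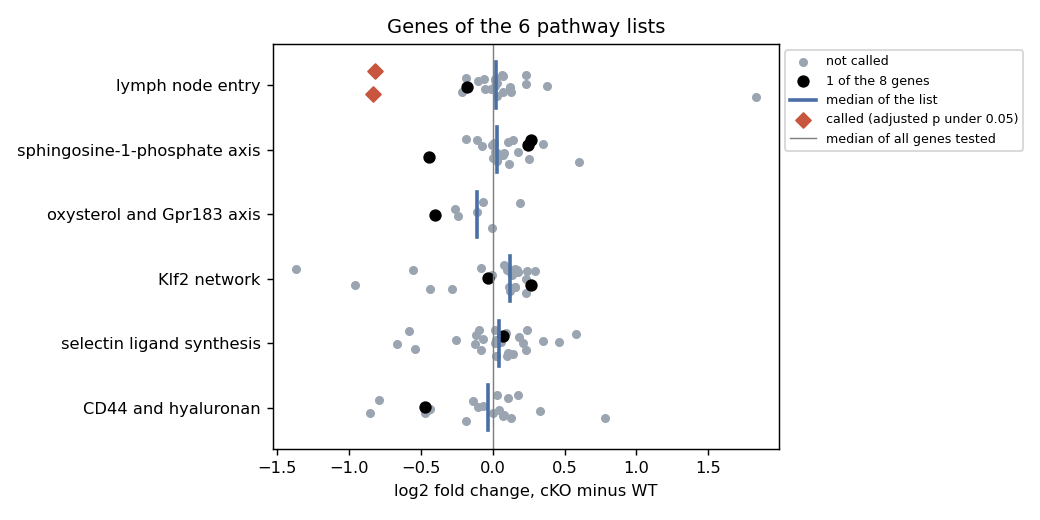
Log2 fold change of cKO minus WT for every tested gene of the 6 lists (points; black for the 8 genes, red diamonds for called genes), with the median of each list in blue and that of all genes tested in grey. Vertical offsets are for legibility; the 2 called genes, Cxcr4 and Itgb1, lie at the left of the lymph node entry row, and the list medians lie between -0.11 and 0.12.

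Fewer cells of a type and less RNA per cell cannot be told apart in these bulk libraries, and several of the 8 genes are also used by other cells that a sort can carry, Ccr7, Gpr183 and S1pr1 by B cells, S1pr1 by endothelium and Selplg by myeloid cells. Of 8 B cell markers tested, 6 lay above 0 (median 0.73). The 12 listed summed to 63.4 to 86.3 CPM in WT and to 111, 106 and 49.0 CPM in cKO, most of it Cd74, while Ms4a1 (CD20), a defining B cell gene, stood at 0.0555 to 0.478 CPM in WT and at 0.436 to 2.27 CPM in cKO. The 14 myeloid markers summed to 225 to 246 CPM and 222 to 290 CPM, most of it Ctss. Of 10 myeloid markers tested, 8 lay above 0 (median 0.34). Csf1r, a defining macrophage gene, stood at 1.66, 4.25 and 1.46 CPM in WT and at 9.07, 21.97 and 2.40 CPM in cKO, and Mpeg1 at 1.94, 7.83 and 2.03 CPM against 8.55, 15.6 and 2.28 CPM. Of 10 endothelial and stromal markers in the table, the sum was 190 to 225 CPM and 226 to 251 CPM, most of it Pecam1, which T cells also express, while Cdh5, a defining endothelial gene, reached at most 0.382 CPM. All 4 tested members of this list lay above 0 (median 1.05), and the stromal collagen gene Col1a1 stood at 1.165, 11.9 and 2.25 CPM in WT and at 12.3, 9.87 and 12.5 CPM in cKO. Col1a2 stood at 1.55, 6.04 and 1.35 CPM in WT and at 6.80, 3.82 and 6.68 CPM in cKO. The 10 erythroid and platelet markers summed to 3.77 to 9.57 CPM in WT and to 204 CPM in cKO1 against 8.07 and 8.69 CPM in the other cKO libraries. The 9 CD8 T and NK cell markers summed to 40.4 to 45.3 CPM and 37.4 to 46.7 CPM. No listed marker in the table was at 0 in all libraries. None of these markers was called. The part of these cells in the values of the 8 genes was not tested.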

How the data were processed

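The build mm10, DESeq2 1.16.1, featureCounts 1.5.0-p3 and HISAT2 2.0.5 are listed in the submitters' processing notes, without roles. The deposited values used for tests are estimated counts, not normalized by the authors; about 46% were not whole (45.4% to 46.3% per library, tolerance 0.01). The deposited columns taken as FPKM, as judged from their values, scale by gene length and depth and served to compare levels between genes.

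Estimated counts were rounded. In R 4.3.3, genes passing filterByExpr of edgeR 4.0.16 (minimum count 10) were kept, scaled by TMM and tested with the quasi-likelihood F test of edgeR, with genotype as the single term. The Benjamini-Hochberg adjustment ran over 12887 genes, and the SE was derived from F. Tests were two-sided. The biological coefficient of variation was 16.7%. With 3 libraries a group, an exact permutation test cannot go below 0.1, so single genes rest on this model. The code was tested on simulated data.

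Alternatives used DESeq2 1.42.0, limma 3.58.1 (voom), other scalings, no filter or a stricter one (CPM of 1 or more in 3 or more libraries), the quasi-likelihood fit with legacy set to FALSE, a replicate block, and libraries left out. The named genes were the 8, Tkt, Foxp3, the called genes and the 2 lowest p-values of each list, and the 3 nearest library patterns (mean of at least 10 CPM) for Cd69, Klf2 and Cd44. Tnfaip3 and Hspa1a were added because they set WT2 and cKO1 apart in an earlier account of these data. The most abundant gene of each list of other cells was added: Cd74, Ctss, Pecam1, Hba-a1 and Cd8b1, with log2 fold changes of 0.33, -0.05, 0.15, 4.27 and 0.23, none called. A few genes named by this rule are left out of the text. The genes, lists and rule were chosen with earlier results of these data known. Coordinates are from RefSeq on GRCm38.p6, counted from 1, and promoter sequences from RefSeq matched 4 of the 8 genes by symbol. In the GENCODE M21 annotation no exon of another gene overlaps an exon of the 8 on either strand.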

Additional observations from a re-analysis of the deposited data

How the results depend on the processing

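Of 120 values of the 8 genes over 15 alternatives, 9 changed sign and 1 became a call. The sign changes, in log2 fold change, were Ccr7 without WT2 (0.36) and without cKO3 (0.03), Klf2 without WT2 (0.12), cKO1 (0.05) and cKO3 (0.04), Selplg without WT2 (-0.056), and, without both WT2 and cKO1, Ccr7 (0.056), Klf2 (0.20) and Selplg (-0.025). With 1 library left out the values ran from -0.49 to 0.36 for Ccr7, from -0.19 to 0.12 for Klf2 and from -0.056 to 0.15 for Selplg. The cause was not tested. DESeq2 called Cd44 (-0.47). Tkt was called with DESeq2 (-1.41), library size only (-1.42), no low-count filter (-1.41), the stricter filter (-1.41), legacy set to FALSE (-1.41) and without WT2 and cKO1 (-1.69).

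The count of called genes over the whole table, 27 as reported, was 179 with DESeq2, 43 with no low-count filter, 71 without WT2 and cKO1 and 0 with the replicate block (811 at an unadjusted p under 0.05 in edgeR, against 991 as reported). With 1 library left out it was 0 to 30, and only without WT2 was any gene called. The 2 called genes of lymph node entry became 0 with the replicate block and 0 to 2 with 1 library left out. In the Klf2 network 3 genes were called with DESeq2, 1 with no low-count filter and 1 without WT2 and cKO1, and in the CD44 list 3 with DESeq2. With the block Cd44 stood at -0.48 (adjusted p = 0.292). Whether the shared numbers pair the libraries cannot be told from 3 libraries a group, whose deviations from the group mean depend on each other. Same-numbered deviations correlated at -0.278, 0.0624 and 0.261 across genes. WT2 went best with cKO1 (0.315), and WT3 and cKO3 went best with each other (0.261).

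Some of the other named genes that were not called as reported changed sign when 1 library was left out. Their ranges were -0.11 to 0.00062 for Ctss, -0.11 to 0.16 for Foxp3, -0.81 to 0.34 for Tnfaip3, -0.085 to 5.34 for Hba-a1, -0.24 to 0.014 for Rhob and -0.18 to 0.079 for Blm. Without WT2 and cKO1 the sign changed for Foxp3 (-0.17), Rhob (0.087) and Blm (0.10).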
